A study of Mus musculus with 5 samples.

Results

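The phagocyte NADPH oxidase is an enzyme that carries electrons from NADPH across a membrane to oxygen, and 6 of its subunit genes were followed here in sorted myeloid progenitors of mice with and without a truncating deletion in Bcor. The genes were Cybb, Cyba, Ncf1, Ncf4, Rac1 and Rac2, found by gene symbol among the 52550 genes of the count table. All 6 passed the filter on low counts that left 11766 genes for testing. The progenitors were Lin-cKit+Sca1- (KL) bone marrow cells, taken 20 weeks after tamoxifen and read by 3′ RNA sequencing (Quant-seq). Of the 5 libraries, 3 were BcorΔE9-10 (genotype scl-Cre-ERT +; Bcorfl/y) and 2 were BcorWT (scl-Cre-ERT +; Bcorwt/y). Mice of both groups were male, carried the same Cre and received tamoxifen at 1 mg per day on 5 days from an age of 3 to 6 months, so by their labels the groups differed in the floxed allele. The Cre is a transgene under stem cell control elements of the Scl (Tal1) gene that tamoxifen switches on, which means that deletion starts in stem cells and reaches the progenitors by descent. In the controls Bcor, which sits on the X chromosome, stayed intact. The labels do not say whether each library came from a separate mouse, and p-values measure only the spread between these libraries.

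In the resting phagocyte the oxidase is kept apart in pieces. Cybb (gp91phox) and Cyba (p22phox) form the membrane flavocytochrome that holds the catalytic centre, while Ncf1 (p47phox, the organiser) and Ncf4 (p40phox, which binds phosphoinositides) wait in the cytosol with their partners. On stimulation the cytosolic subunits are phosphorylated, move to the membrane together with a Rac GTPase and start superoxide production, which neutrophils and macrophages use to kill microbes. Loss of CYBB, CYBA, NCF1 or NCF4 in humans causes chronic granulomatous disease. The genes are switched on step by step as granulocytes and monocytes mature, and PU.1 (Spi1) is an established activator of several of them.

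In mm10, which is the build of the count table, Cybb lies on the minus strand of chromosome X (9435252 to 9487771) and Cyba on the minus strand of chromosome 8 (122424776 to 122432930). Ncf1 (134220053 to 134229625) and Rac1 (143503634 to 143528036) are on the minus strand of chromosome 5. Ncf4 (78244801 to 78262580, plus strand) and Rac2 (78559169 to 78572783, minus strand) lie close together on chromosome 15. All 6 are protein-coding genes, and counts were summed over their exons, so UTR and coding reads were not told apart. The last 300 bases of the annotated transcript, where 3′ reads fall, had no 30-base word in common with another gene for Cybb, Cyba, Ncf4 and Rac2. For Ncf1 9.96% of such words were found in other genes, 29 in all, and for Rac1 0.74%. The end of Rac1 overlaps an exon of Daglb on the opposite strand, and reads of the pair cannot be separated if counting ignored strand.

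Promoter windows are shown for Cybb, Cyba and Ncf1, the 3 members with an entry in the RefSeq-derived table for GRCm38.p6 (mm10), because regulators that bind such windows are given among the related genes. Each window runs from 250 bases before to 50 after the annotated start, 5′ to 3′ along the gene's own strand: Cybb at chrX:9469275-9469574, Cyba at chr8:122432891-122433190 and Ncf1 at chr5:134229576-134229875, all on the minus strand. The RefSeq start of Cybb lies inside the span given above, which reaches further upstream. Capitals mark the PU.1 core GAGGAA and the CCAAT box, each searched on both strands.
Cybb: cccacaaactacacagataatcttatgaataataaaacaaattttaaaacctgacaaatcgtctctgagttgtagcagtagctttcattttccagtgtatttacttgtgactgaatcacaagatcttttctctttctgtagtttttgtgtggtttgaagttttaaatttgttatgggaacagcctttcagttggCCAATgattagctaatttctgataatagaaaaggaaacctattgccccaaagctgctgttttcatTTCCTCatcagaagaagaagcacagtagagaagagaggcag
Cyba: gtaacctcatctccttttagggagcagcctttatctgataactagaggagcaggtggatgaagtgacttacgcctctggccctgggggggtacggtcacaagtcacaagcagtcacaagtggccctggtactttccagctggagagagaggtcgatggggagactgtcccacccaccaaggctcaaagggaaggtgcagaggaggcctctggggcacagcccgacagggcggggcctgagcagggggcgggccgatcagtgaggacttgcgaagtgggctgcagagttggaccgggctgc
Ncf1: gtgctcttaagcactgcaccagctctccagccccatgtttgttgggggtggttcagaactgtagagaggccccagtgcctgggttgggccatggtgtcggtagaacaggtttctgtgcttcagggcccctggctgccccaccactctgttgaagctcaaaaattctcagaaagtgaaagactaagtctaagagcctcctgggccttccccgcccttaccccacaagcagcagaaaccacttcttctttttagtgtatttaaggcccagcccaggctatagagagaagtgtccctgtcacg
The Cybb window is AT-rich, with 35.3% GC, against 60.7% for Cyba and 54.0% for Ncf1. Cybb alone of the 3 held the searched words, a CCAAT box 56 bases upstream of the start and the PU.1 core, on the opposite strand, beginning at base 10 of the transcript. These letters are common, since of 32851 promoter windows of this length 28.3% hold GAGGAA and 37.4% hold CCAAT on either strand.

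The libraries held between 5998924 and 8303999 counts. No pair of libraries of the same group was alike to within counting error (a chi-square of 5.69 to 10.8 for each gene compared, against about 1 for counting error), and each was kept as a replicate. Bcor, read at its transcript end and so outside the deleted exons, had 83 and 109 counts in BcorWT and 168 to 196 in BcorΔE9-10, which does not check the deletion. The sort was checked on its markers. Kit was read at 18.2 and 19.6 CPM (counts per 1e+06, after TMM scaling of the totals) in BcorWT and at 49.4 to 53.4 CPM in BcorΔE9-10 (limma adjusted p = 9.82e-05), and Ly6a, which encodes Sca1, had at most 8 counts in any library. The early granule genes Elane, Prtn3 and Mpo were abundant in every library. Transcripts of maturing neutrophils were abundant too, although the lineage gate (CD11b, Gr-1 and 7-4 among others) removes mature cells.

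Of the 6 oxidase genes, 5 were lower in BcorΔE9-10 progenitors and none was higher, while of all 11766 genes 4.09% were called lower and 10.1% in either direction at a limma adjusted p under 0.05. Ncf1 and Cybb fell to 66.9% and 68.2% of their mean BcorWT level, ahead of Ncf4 (74.9%), Rac2 (77.2%) and Cyba (77.3%). Rac1, the Rac GTPase found in all cells, was at 92.5% and did not pass the test. The median log2 fold change of the 6 genes was -0.40, beside 0.0043 for all genes tested, whose middle 50% ran from -0.25 to 0.34. In all 6, the highest BcorΔE9-10 library lay below the lowest BcorWT library, a pattern shown by 20.3% of all genes tested. With total counts alone as the scale, which shifted the median of all genes by 0.14, genes called higher and lower numbered 1210 and 197 in place of 708 and 481, and 2 of the 6 oxidase genes, Cybb and Ncf1, were still called. Fewer cells of a type and less RNA per cell cannot be told apart in these bulk libraries.

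**Figure D1:**
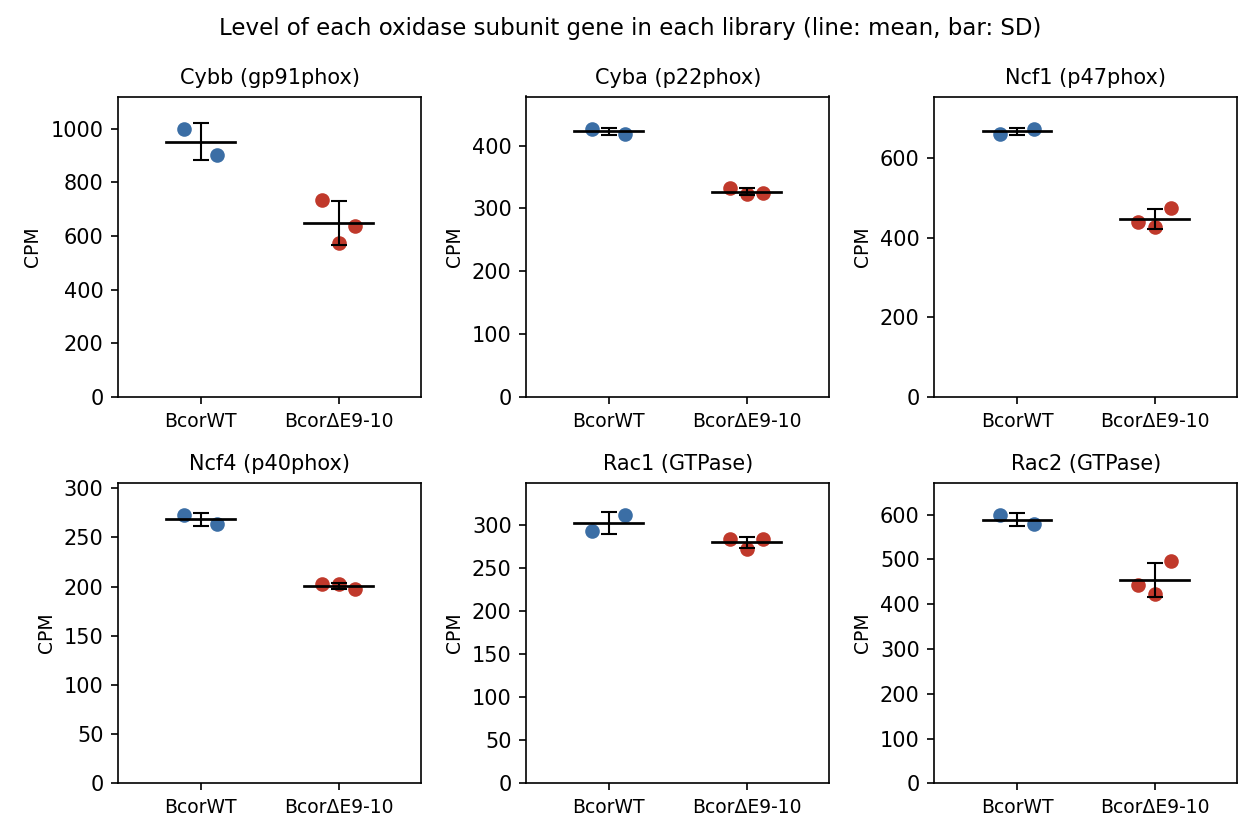
Level of each oxidase subunit gene in CPM (vertical axis, from 0) in each BcorWT (blue, n = 2) and BcorΔE9-10 (red, n = 3) library, with the mean as a line and the SD as a bar. The groups stand apart for every gene, widely for Cybb and Ncf1 and narrowly for Rac1, whose highest BcorΔE9-10 library is at 283 CPM and lowest BcorWT library at 293 CPM.

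The membrane flavocytochrome was examined first. Cybb, the catalytic chain, was read at 999 and 902 CPM in the BcorWT libraries and at 736, 574 and 636 CPM in BcorΔE9-10 libraries 1, 2 and 3. Both controls lay above every BcorΔE9-10 library, and library 2 was the lowest of all. BcorWT averaged 951 ± 68.9 CPM (SD, n = 2) and BcorΔE9-10 649 ± 81.5 CPM (SD, n = 3), with a fitted log2 fold change of -0.55 ± 0.107 (SE), at an adjusted p of 0.00366 in limma. Its partner Cyba, which stabilises the catalytic chain and anchors the cytosolic subunits, was at 427 and 419 CPM in BcorWT and at 333, 324 and 324 CPM in BcorΔE9-10. Its libraries were much alike within each group. The averages were 423 ± 5.65 CPM (SD, n = 2) and 327 ± 5.42 CPM (SD, n = 3), and the fitted log2 fold change was -0.37 ± 0.0973 (SE; limma adjusted p = 0.0230).

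The Cybb call held in each of 16 alternative fits, with limma, edgeR or DESeq2 adjusted p-values of at most 0.0314. The Cyba call held in 9 of 16. It was lost without BcorΔE9-10 library 1 (log2 fold change -0.38, limma adjusted p = 0.0732), without library 3 (-0.38, 0.0722), without BcorWT library 1 (-0.36, 0.1002) and without BcorWT library 2 (-0.38, 0.0519), all fits on fewer libraries. With all libraries it was also lost with total counts alone (-0.23), with the GC trend removed (-0.25) and with that and a block on replicate number (-0.26).

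The cytosolic subunits came next. Ncf1, the organiser subunit, which bridges the cytosolic complex and Cyba once phosphorylated, was read at 660 and 673 CPM in BcorWT and at 438, 426 and 474 CPM in BcorΔE9-10. The controls were close to each other and far above every BcorΔE9-10 library. With averages of 666 ± 8.75 CPM (SD, n = 2) and 446 ± 24.8 CPM (SD, n = 3), it fell by 0.58 ± 0.0955 (log2 ± SE; adjusted p = 0.00122 in limma). It was called in all 16 alternative fits, with adjusted p-values of at most 0.00876 in limma, edgeR and DESeq2. A stretch of its transcript end is repeated elsewhere in the genome, as given above.

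Ncf4, the smallest of the cytosolic phox subunits, was at 273 and 264 CPM in BcorWT and at 203, 203 and 197 CPM in BcorΔE9-10. The BcorΔE9-10 libraries lay close together, and the groups were well apart. The averages were 268 ± 6.40 CPM (SD, n = 2) and 201 ± 3.21 CPM (SD, n = 3), and the gene fell by 0.42 ± 0.104 (log2 ± SE; adjusted p = 0.0176 in limma). The call held in 10 of 16 alternative fits and was lost without BcorΔE9-10 library 1 (-0.42, limma adjusted p = 0.0599), library 3 (-0.42, 0.0627) or BcorWT library 1 (-0.40, 0.0837), and in the same 3 fits with all libraries as Cyba (-0.27, -0.30 and -0.29).

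The Rac GTPases were compared next. Rac2, the form restricted to blood cells and the main one in the neutrophil oxidase, was at 599 and 579 CPM in BcorWT and at 443, 423 and 497 CPM in BcorΔE9-10. Library 3 was the highest of the BcorΔE9-10 group and still below the lower control. BcorWT averaged 589 ± 14.4 CPM (SD, n = 2) and BcorΔE9-10 454 ± 38.5 CPM (SD, n = 3), and the gene fell by 0.37 ± 0.101 (log2 ± SE; adjusted p = 0.0258 in limma). The call was lost without BcorΔE9-10 library 1 (-0.35, limma adjusted p = 0.105), library 2 (-0.33, 0.0559) or BcorWT library 1 (-0.36, 0.115), with total counts alone (-0.23) and with the GC trend removed (-0.29), and held in 11 of 16 alternative fits.

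Rac1 was at 293 and 312 CPM in BcorWT and at 283, 273 and 283 CPM in BcorΔE9-10. The groups did not overlap, but the nearest libraries of the groups were closer to each other than the controls were. The means were 302 ± 12.98 CPM (SD, n = 2) and 280 ± 6.20 CPM (SD, n = 3), and the fitted log2 fold change of -0.11 ± 0.102 (SE) did not pass (limma adjusted p = 0.535). Its direction turned with total counts alone (0.035) and after removal of the GC trend described below (0.011).

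**Figure D2:**
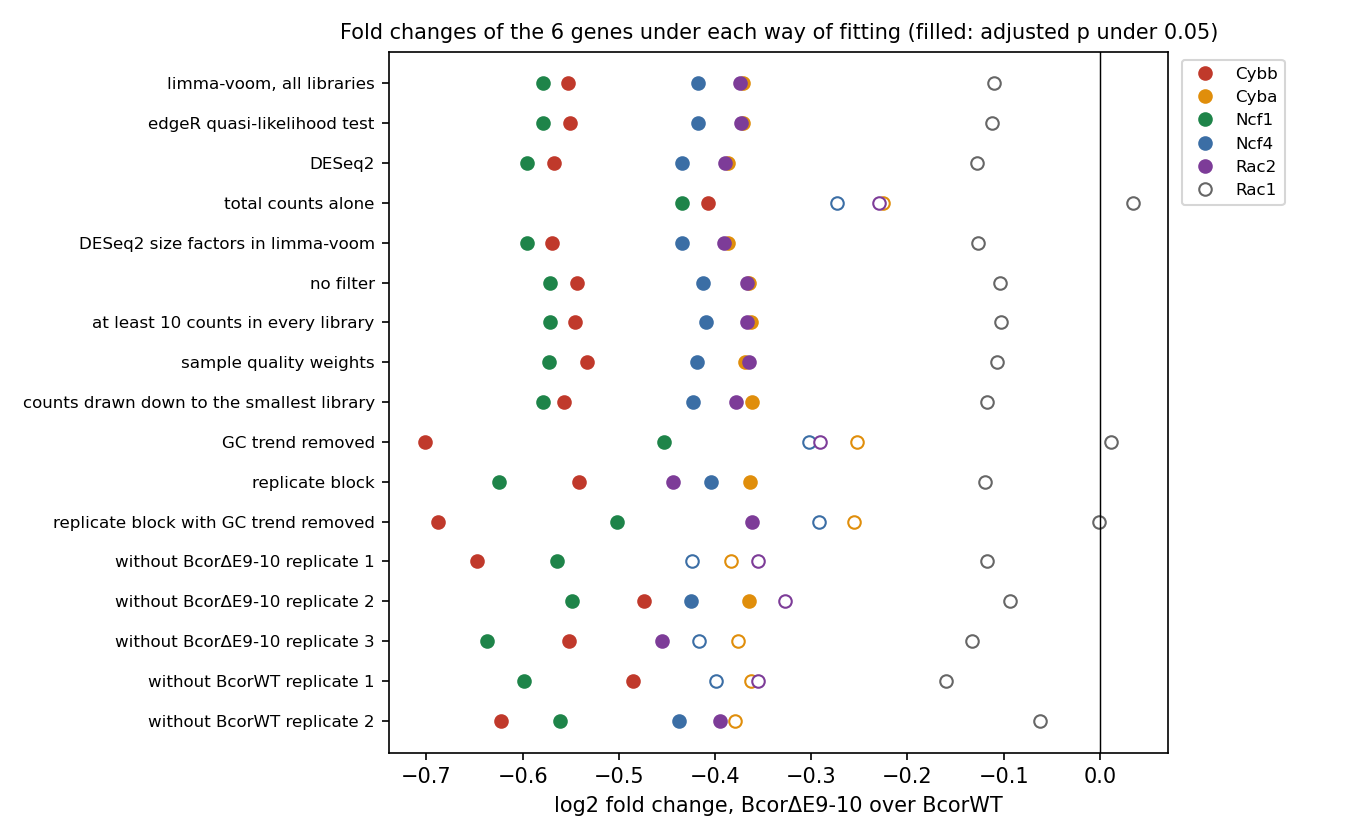
Log2 fold change of each of the 6 genes (horizontal axis, BcorΔE9-10 over BcorWT) in the limma-voom fit with all libraries (top) and in 16 alternative fits (one per line), with filled points where the adjusted p was under 0.05. Ncf1 and Cybb are filled on every line, Cyba, Ncf4 and Rac2 lie further to the right and are open on some lines, and Rac1 stays near 0 and open throughout.

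Per kilobase of summed exon length, the levels of the genes in BcorWT ran from Cyba (407 CPM per kb) through Rac2 (194), Ncf1 (182), Cybb (164) and Ncf4 (133) to Rac1 (67.2), and the order was the same in BcorΔE9-10, from 315 down to 62.2 CPM per kb. A 3′ library reads 1 end of each transcript, and so undivided CPM may be nearer to transcript numbers, in which order Cybb was the highest in both groups. In BcorWT Ncf1 stood above Rac2 in CPM with no overlap between their libraries, while in BcorΔE9-10 the ranges of Ncf1 (426 to 474 CPM) and Rac2 (423 to 497 CPM) overlapped. Rac1 exceeded Ncf4 in CPM in both groups with no overlap.

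Ratios of a pair of genes within a library do not depend on how libraries are scaled. The Rac2 to Rac1 ratio of counts was 2.04 and 1.86 in BcorWT and 1.57, 1.55 and 1.76 in BcorΔE9-10, with no overlap. On the log2 scale it was lower by a mean of 0.27, from 0.96 ± 0.097 (SD, n = 2) to 0.70 ± 0.099 (SD, n = 3). The Ncf1 to Ncf4 ratio was 2.42 and 2.55 in BcorWT and 2.16, 2.10 and 2.40 in BcorΔE9-10, close to touching. The Cybb to Cyba ratio was 2.34 and 2.15 in BcorWT and 2.21, 1.77 and 1.97 in BcorΔE9-10, and the groups overlapped. These ratios are given as values, with no test.

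**Figure D3:**
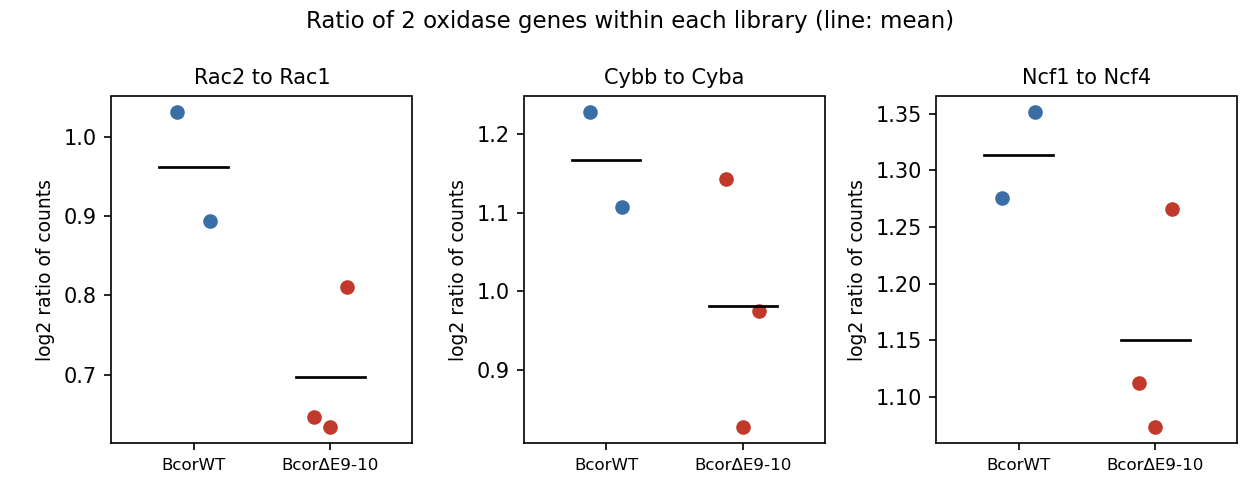
Log2 ratio of the counts of a pair of oxidase genes (vertical axis, own range in each panel, not starting at 0) in each BcorWT (blue) and BcorΔE9-10 (red) library, with the group mean as a line. The groups are apart for Rac2 to Rac1 and, by a small margin, for Ncf1 to Ncf4, and overlap for Cybb to Cyba.

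The make-up of the summed oxidase counts was also described. Cybb made up 30.7% and 28.7% of the counts of the 6 genes in BcorWT and 25.8% to 30.2% in BcorΔE9-10. Ncf1 made up 20.3% and 21.4%, against 18.0% to 19.6%. The share of Rac1 was 9.02% and 9.90% in BcorWT and 11.6% to 12.3% in BcorΔE9-10, the widest separation among the 6. The shares of Cyba were 13.1% and 13.3% against 13.4% to 14.6%, and those of Ncf4 and Rac2 overlapped between the groups. These shares sum to a fixed whole, so a gene that fell less than the others gains.

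Genes with the most similar profile over the 5 libraries were sought among the 3285 genes whose log2 CPM averaged 5 or more, by the root mean square difference of log2 CPM centred on each gene's mean. Nearest to Ncf1 were Timm10b (0.024) and Usp50 (0.034), and nearest to Cybb were Ap2s1 (0.035) and Psmd4 (0.040). Nearest to Cyba were Bms1 (0.012) and Ndufb10 (0.014), to Rac2 Spg21 (0.016) and Zyx (0.017), and to Rac1 Ddx3x (0.0094) and Rap1b (0.012). Ncf4 lay nearest to Ppp1r12c (0.018) and Taldo1 (0.021), the latter an enzyme of the pentose phosphate pathway. Among the 6 genes themselves the closest pair was Cyba and Ncf4 (0.028) and the most distant was Cybb and Rac1 (0.25). Such closeness was common, as between 82 genes for Cybb and 646 for Rac1 lay within 0.1.

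Beyond these 6, 99 genes in 7 lists around the oxidase were examined with the same fit, of which 84 were tested, 10 fell and 7 rose. The counts for these lists stand beside the 10.1% of all genes tested that were called in either direction and the 4.09% called lower. No other catalytic oxidase was detectable at this depth: Nox1, Nox3, Nox4, Duox1 and Duox2, with Noxa1 and Duoxa1, had 0 counts in every library. The family genes Rac3, Noxo1 and Duoxa2 had at most 12 counts and were not tested. Of the partner genes, none of 4 passed: Cybc1, a chaperone needed for Cybb protein, had a log2 fold change of -0.20, the proton channel Hvcn1 0.16, and the small GTPases Rap1a and Rap1b 0.11 and -0.12. Rap1b was at 0.026 with total counts alone, and Rap1a at 0.011 without BcorΔE9-10 library 2.

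Regulators of Rac had 1 gene higher and 2 lower among 19 tested, with a median log2 fold change of 0.10. The lower pair encode GDP-dissociation inhibitors, which hold Rac proteins in the cytosol. Arhgdib, the blood cell form and the most abundant gene of the list, was at 1786 and 1784 CPM in BcorWT and at 1258, 1200 and 1491 CPM in BcorΔE9-10 (log2 fold change -0.44, limma adjusted p = 0.00825). Arhgdia fell by 0.55 on the log2 scale (limma adjusted p = 0.00827), and by 0.51 without BcorWT library 1 (limma adjusted p = 0.0507). The exchange factor Prex1 rose by 0.48 (limma adjusted p = 0.0337), a call lost without any 1 of BcorΔE9-10 libraries 2 and 3 and BcorWT libraries 1 and 2 (0.45, 0.44, 0.54 and 0.42). Of the kinases that act on the cytosolic subunits, 1 of 12 tested was called, a share under the 10.1% of all genes: Mapk3 (Erk1) fell by 0.57 (log2, limma adjusted p = 0.00204).

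Enzymes that supply NADPH, the electron donor of the oxidase, had 3 of 13 tested genes lower and none higher, with a median log2 fold change of -0.16. The count of calls was 0 without BcorWT library 1 and 1 with total counts alone. Pgd, which yields NADPH in the pentose phosphate pathway, was at 1242 and 1008 CPM in BcorWT and at 863, 770 and 819 CPM in BcorΔE9-10, with a log2 difference of -0.45 (limma adjusted p = 0.0101), which was -0.31 without BcorWT library 1 (limma adjusted p = 0.138). Taldo1 was at -0.40 (limma adjusted p = 0.0103; -0.35 without BcorWT library 1, 0.0818). G6pdx, the entry enzyme of the pathway, was at -0.44 and only just passed (limma adjusted p = 0.0475). It no longer passed without BcorΔE9-10 library 2 (-0.42) or 3 (-0.38), BcorWT library 1 (-0.45) or BcorWT library 2 (-0.42). With all libraries it also did not pass with no filter (-0.43), with quality weights (-0.43) or with the replicate block (-0.37). The same held for the block with the GC trend removed (-0.28).

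Genes that handle superoxide and peroxide moved both ways, with 3 higher and 2 lower among 25 tested and a median log2 fold change of -0.20. Gsr, which regenerates glutathione with NADPH, rose from 152 and 237 CPM to 333, 357 and 351 CPM (log2 fold change 0.87, SE 0.144, limma adjusted p = 0.00125). The controls were far apart, and the value was 0.54 without BcorWT library 1 and 1.19 without BcorWT library 2, called in both fits. Txn1 (thioredoxin) rose by 0.60 on the log2 scale (limma adjusted p = 0.0136), but by 0.28 without BcorWT library 1 (limma adjusted p = 0.244) and by 0.93 without BcorWT library 2. Nfe2l2, the transcription factor NRF2, rose by 0.61 (limma adjusted p = 0.0240), and did not pass without BcorΔE9-10 library 2 (0.55) or 3 (0.61) or BcorWT library 1 (0.56). Gpx1, the cytosolic glutathione peroxidase, fell from 3698 and 3865 CPM to 2622, 2736 and 2678 CPM (-0.50, SE 0.0772, limma adjusted p = 0.000781). Prdx6 was the other gene called lower (-0.39, limma adjusted p = 0.0330), named after its value was seen, and its call was lost without each of BcorΔE9-10 libraries 1 (-0.42), 2 (-0.32) and 3 (-0.45) and BcorWT library 1 (-0.33). Mpo, which turns peroxide into hypochlorous acid and was the most abundant gene of the list, was at 5183 and 5294 CPM in BcorWT and at 5534, 4292 and 4986 CPM in BcorΔE9-10 (-0.09, limma adjusted p = 0.593), and was at 0.0033 without BcorΔE9-10 library 2.

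Of transcription factors with a known link to oxidase genes, 3 were higher and 2 lower among 10 tested. Spi1 was at 230 and 206 CPM in BcorWT and at 157, 146 and 168 CPM in BcorΔE9-10, with no overlap (-0.47, SE 0.114, limma adjusted p = 0.0154). The call was lost without BcorΔE9-10 library 1 (-0.47, limma adjusted p = 0.0524) or BcorWT library 1 (-0.40, 0.109). Rela, named after its value was seen, was also lower (-0.47, limma adjusted p = 0.0237), a call lost without BcorΔE9-10 library 1 (-0.50), 2 (-0.42) or 3 (-0.49) or BcorWT library 2 (-0.38). Cebpb (1.31) and Nfkb1 (1.03) were higher, with limma adjusted p-values of 0.00128 and 0.00266, as was Hoxa9 (3.56), at 2.27 and 2.22 CPM in BcorWT against 20.9 to 32.8 CPM. Hoxa10 had at most 4 counts and was not tested. Of the 17 called genes around the oxidase, Arhgdib (-0.30), Taldo1 (-0.26), G6pdx (-0.29), Prdx6 (-0.25), Spi1 (-0.33) and Rela (-0.32) were not called with total counts alone. After removal of the GC trend the same held for G6pdx (-0.35), Prdx6 (-0.35), Spi1 (-0.37), Rela (-0.35), Nfe2l2 (0.28) and Nfkb1 (0.56).

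**Figure D4:**
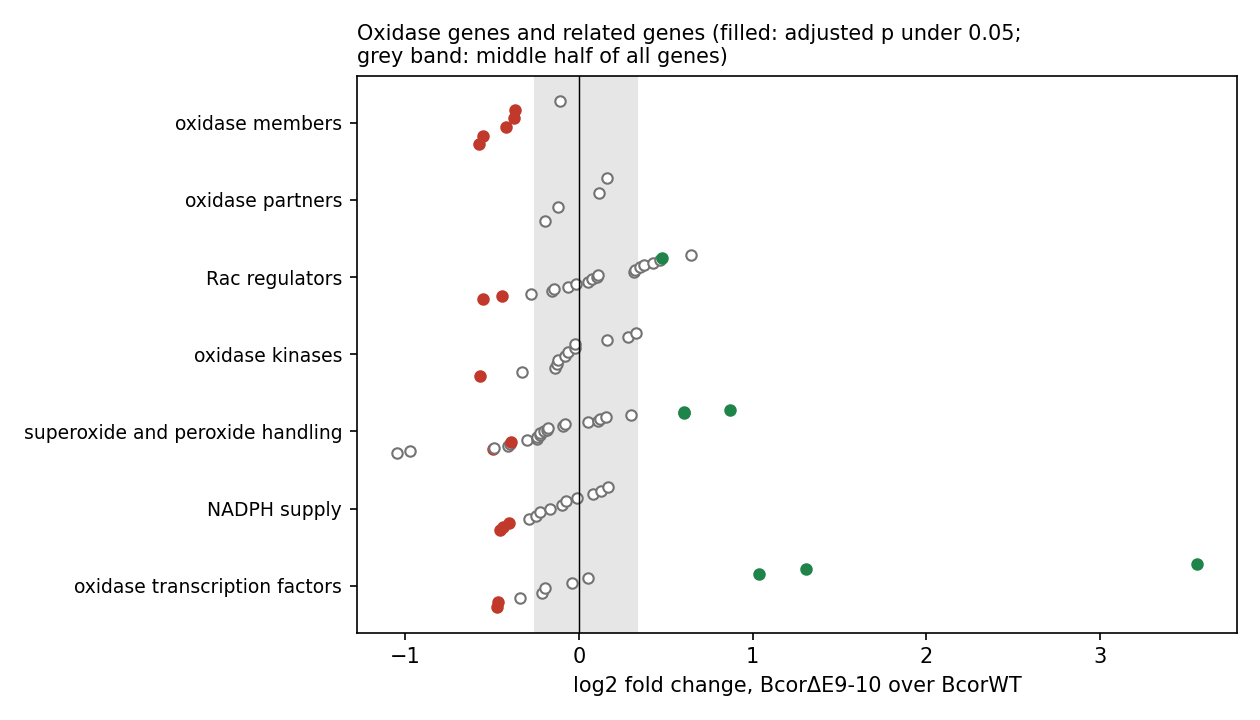
Log2 fold change (horizontal axis, BcorΔE9-10 over BcorWT) of the 6 oxidase genes and of every tested gene in 6 related lists (rows), with red for genes called lower, green for genes called higher and open points for genes not called. Of the oxidase genes 5 lie left of the grey band, which marks the middle 50% of all genes (-0.25 to 0.34), and called genes of the related lists lie on either side of it.

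Several neutrophil, eosinophil and basophil markers were also lower, beside 4.09% of all genes tested. Of 13 neutrophil markers, all tested, 7 were lower and none was higher in BcorΔE9-10, with a median log2 fold change of -0.63. Their summed level ran from 216600 to 229300 CPM in BcorWT and from 149900 to 173800 CPM in BcorΔE9-10. None of them was at 0 in any library. S100a8, Ngp and Ltf were at -0.61, -0.68 and -0.81, while Camp was at 0.25 (limma adjusted p = 0.114) and was called higher in 5 of 16 alternative fits, at up to 0.44 without BcorWT library 2, but was at 0.056 without BcorWT library 1. Ly6g encodes 1 of the antigens of the Gr-1 gate, which the study lists as Ly6C and Ly6G. It was at 570 and 321 CPM in BcorWT and at 228, 208 and 222 CPM in BcorΔE9-10. The log2 fold change was -0.97, and -0.55 without BcorWT library 1. Of 8 monocyte markers 1, Ly6c2, was lower, with summed levels of 1530 to 1538 CPM against 1159 to 1300 CPM. Ly6c2 made up most of that sum (1229 and 1247 CPM against 920 to 1007 CPM). For 7 macrophage markers the summed level was 149 and 166 CPM in BcorWT and 123 to 174 CPM in BcorΔE9-10. Nearly all of it was Vcam1 (142 and 159 CPM against 121 to 172 CPM). Of these markers 2 were tested and neither passed, and C1qa, C1qb and C1qc had at most 21 counts. Of 7 eosinophil markers 4 of the 5 tested were lower, with summed levels of 803 to 951 CPM against 282 to 442 CPM. Prg2 made up most of that sum (691 and 817 CPM against 233 to 389 CPM). Siglecf went the other way, at 0.77 (limma adjusted p = 0.083). Of 6 basophil and mast cell markers 3 were lower and Gata2 was higher (287 to 449 CPM against 182 to 193 CPM), and of 8 erythroid markers 1 of the 5 tested was higher (19.5 to 59.1 CPM against 56.5 to 240 CPM). The KL progenitor markers summed to 7423 and 8254 CPM in BcorWT and to 6919 to 8186 CPM in BcorΔE9-10, with Kit the 1 gene called of 7. The part of these cells in the lower oxidase levels was not tested.

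The GC content of the transcript end also differed between the genes. It was 35.3% for Cybb, near the lower quartile of all genes tested (36.7%), and between 49.3% and 58.0% for the other 5, at or above the upper quartile (49.3%). After a smooth trend on GC content was removed from each library, Cybb stood at -0.70 on the log2 scale (adjusted p = 0.000847 in limma) and Ncf1 at -0.45 (0.00749), while Ncf4 (-0.30, 0.0828), Rac2 (-0.29, 0.0835) and Cyba (-0.25, 0.121) were no longer past the threshold. The part of GC content in the uncorrected values was not tested further.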

How the data were processed

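Quant-seq 3′ RNA sequencing had been made from KL cells of 5 samples, grouped by their titles into BcorΔE9-10 (n = 3) and BcorWT (n = 2). Per the labels and the study's methods, the authors removed reads of low quality, trimmed them with cutadapt, aligned them to mm10 with HISAT2 and counted them per gene with featureCounts (Subread 1.5.0-p3). The values deposited are whole-number counts for each gene, with no normalisation. Options for strand and for reads with several alignments are not given in the sources used here. Every count column was matched to 1 sample through its description, and 52403 of 52550 gene IDs were given a symbol.

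Genes were kept with filterByExpr of edgeR 4.0.16 (minimum count 10, minimum total 15), scaled by TMM and tested with limma 3.58.1 on voom values in R 4.3.3, two-sided, with Benjamini-Hochberg adjustment over all 11766 genes. CPM are counts per 1e+06 of the TMM-scaled total. Alternatives were edgeR's quasi-likelihood test, DESeq2 1.42.0, other scalings and filters, quality weights, drawn-down counts, removal of a lowess trend (span 0.3) on GC content of the last 300 transcript bases, a block on replicate number, and fits without each library in turn. The fits were tested on simulated counts.

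The 6 genes, the gene lists and the rule for named genes (called genes of each list, at most 4 by fold change, its most abundant gene, all tested oxidase family and partner genes, and the 2 genes nearest to each oxidase gene) were chosen with earlier results of these data known. Prdx6, Rela and the marker genes given with values were picked after their values were seen. A further gene of the oxidase lists is not reported here. Counts have no molecular identifiers, and precision is given by the spread between libraries.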

Additional observations from a re-analysis of the deposited data

How the results depend on the processing

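Cybb and Ncf1 kept their direction and their call in all 16 alternatives. With total counts alone 2 of the 6 oxidase genes were called, and Cyba (-0.23), Ncf4 (-0.27) and Rac2 (-0.23) were not. Rac1 turned to 0.035, Rap1b to 0.026, Mpo to 0.058 and Ddx3x to 0.045, each less than the shift of 0.14 in the median of all genes that this scaling brings. Less that shift, Cyba (-0.37), Ncf4 (-0.42), Rac2 (-0.37) and Rac1 (-0.11) stood at their TMM values. That return is fixed by the arithmetic, as the scaling moves all genes nearly alike, and is no check of the lost calls. With the GC trend removed 2 were called, with Cyba at -0.25, Ncf4 at -0.30, Rac2 at -0.29, Rac1 at 0.011 and Mpo at 0.018. With that and the replicate block 3 were called, with Cyba at -0.26, Ncf4 at -0.29 and Mpo at 0.0078. Of the 84 related genes tested, 11 in place of 17 were called under either total counts or GC removal.

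Leaving out each library gave 2 to 4 called oxidase genes: 2 without BcorΔE9-10 library 1 or BcorWT library 1, 3 without BcorΔE9-10 library 3, and 4 without BcorΔE9-10 library 2 or BcorWT library 2. Log2 fold changes then ran from -0.38 to -0.36 for Cyba, -0.44 to -0.40 for Ncf4 and -0.45 to -0.33 for Rac2. Related genes called ran from 9, without BcorWT library 1, to 16. Mpo ran from -0.175 to 0.0033. A lone control was taken to vary like the BcorΔE9-10 libraries. Fewer libraries remain in these fits. The cause of the changes under GC removal was not tested.

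Replicate numbers are shared for 2 pairs, in which the departures from the mean of the group had correlations over genes of 0.070 and 0.076. These values are small but not independent, since the departures of the 2 controls mirror each other. Whether libraries with the same number were handled together was not tested. With the replicate block 5 oxidase genes were called, with Ncf1 at -0.62, and 1454 genes over all in place of 1189. In both block fits BcorΔE9-10 library 3, alone with its number, adds nothing to the difference between the groups. These fits leave little spread within a gene, so their p-values rest mostly on the spread shared over all genes.

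For 40 other single genes there were 640 comparisons, of which 556 kept direction and call, 69 lost a call, 9 gained one and 6 changed direction. Counts of 1241 to 7037 per library lie behind the 6 genes.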
